A study of Mus musculus with 6 samples.

Results

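The lysosomal cathepsins and legumain were examined in spleens of (AKR/J x FVB/NJ)F1 females, called AKR/J F1 here, against spleens of (DBA/2J x FVB/NJ)F1 females, called DBA/2J F1. The members were the genes Ctsb, Ctsc, Ctsd, Ctse, Ctsh, Ctsk, Ctsl, Ctss, Ctsz and Lgmn, and every probe set annotated with 1 of these symbols and no other was taken. This gave 21 probe sets for all 10 genes, out of 45037 probe sets tested and 18193 genes with a probe set of their own. Each cross was represented by 3 adult animals, with 1 Affymetrix array per spleen. Every animal had an FVB/NJ parent, so that the crosses differed in the other inbred parent, and the labels name no treatment other than Avertin anaesthesia before cervical dislocation. The comparison asks how basal expression differs between these genotypes. All values are the deposited probe set values, taken as log2. A difference is the mean of AKR/J F1 spleens minus the mean of DBA/2J F1 spleens, so that a negative difference is lower in AKR/J F1 spleens.

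Cathepsins are proteases that work in the acidic compartments of the cell, where they break down proteins taken up from outside and mature other enzymes. Most members here are papain-like cysteine proteases (Ctsb, Ctsc, Ctsh, Ctsk, Ctsl, Ctss and Ctsz), while Ctsd and Ctse encode aspartic proteases and Lgmn encodes legumain, a cysteine protease of another family that cuts after asparagine and processes several cathepsins. In spleen they are best known for digesting antigen and the invariant chain in cells that present peptides on class II molecules, and for the breakdown of engulfed cells in macrophages. Cathepsin E differs from the rest: it lies mainly in endosomes, is made in stomach and lymphoid tissue, and is known in human and rat as an enzyme of the red cell membrane.

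Of the 10 genes Ctse alone passed the test as fitted here. Both Ctse probe sets fell in AKR/J F1 spleens, by 0.87 and 0.96 on the log2 scale, which is 1.83-fold and 1.94-fold. The other 19 probe sets did not pass an adjusted p of 0.05 in limma (Benjamini-Hochberg over all probe sets). Thus 2 of 21 member probe sets were called, or 9.52%, against 10.4% of all probe sets on the array, and these shares are close. This and the other shares over all probe sets include dim ones, while the members were mostly bright. At its brightest probe set every member but Ctsk exceeded at least 96.1% of all probe sets in mean level. Without the dimmest 40% of probe sets, 4417 of 27022 were called. In that fit 1 of 20 member probe sets was called higher in AKR/J F1 spleens and 2 higher in DBA/2J F1 spleens. By direction, 0 of 21 were called higher in AKR/J F1 spleens, against 5.14% of all probe sets, and 2 were called higher in DBA/2J F1 spleens, against 5.26%. At an unadjusted limma p under 0.05 stood 10 of 21 member probe sets, 8 of them higher in AKR/J F1 spleens, against 30.7% of all probe sets in either direction. Other settings of limma called between 0 and 3 higher in AKR/J F1 spleens. Of the 21 differences, 15 were positive and 6 negative, while 46.8% of all probe sets had a positive difference. The median difference was 0.12 over the member probe sets and -0.02 over all probe sets.

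**Figure D1:**
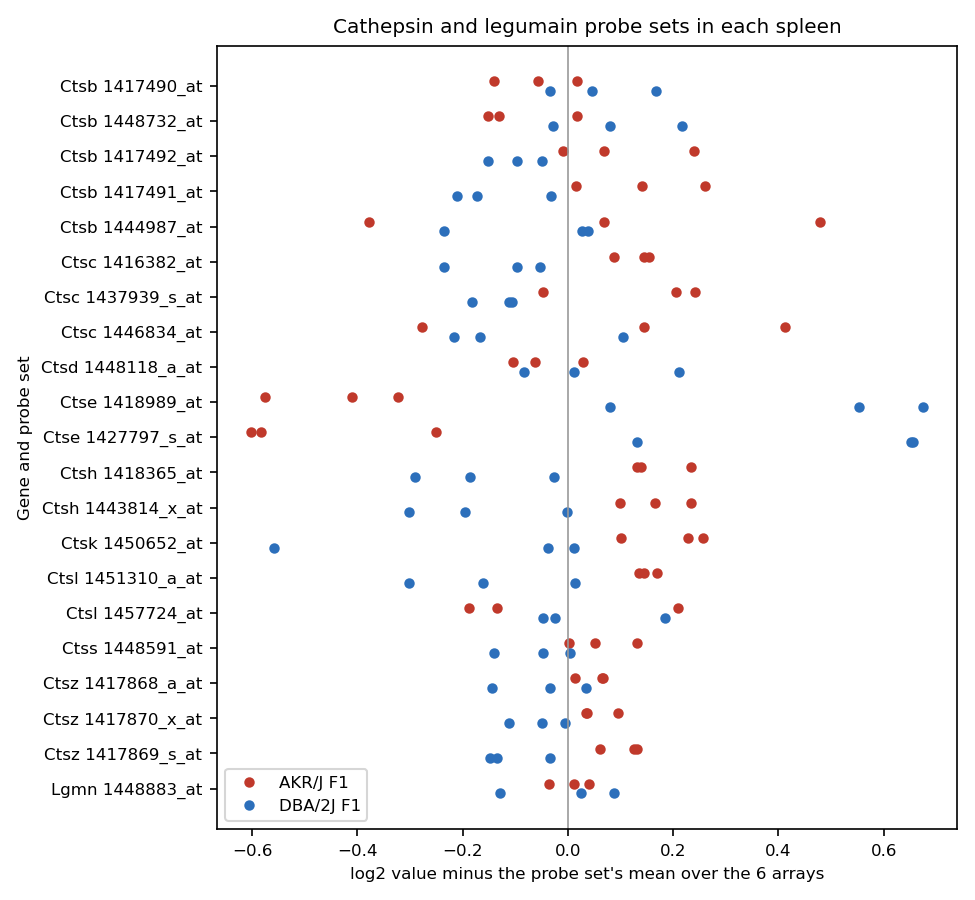
Each row is a member probe set, and each point is 1 spleen, plotted as its log2 value minus that probe set's mean over the 6 arrays; the 3 AKR/J F1 spleens are red and the 3 DBA/2J F1 spleens blue. Both Ctse probe sets show the AKR/J F1 spleens on the left of all DBA/2J F1 spleens, and the 2 Ctsh probe sets show them on the right with a much smaller gap.

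**Figure D2:**
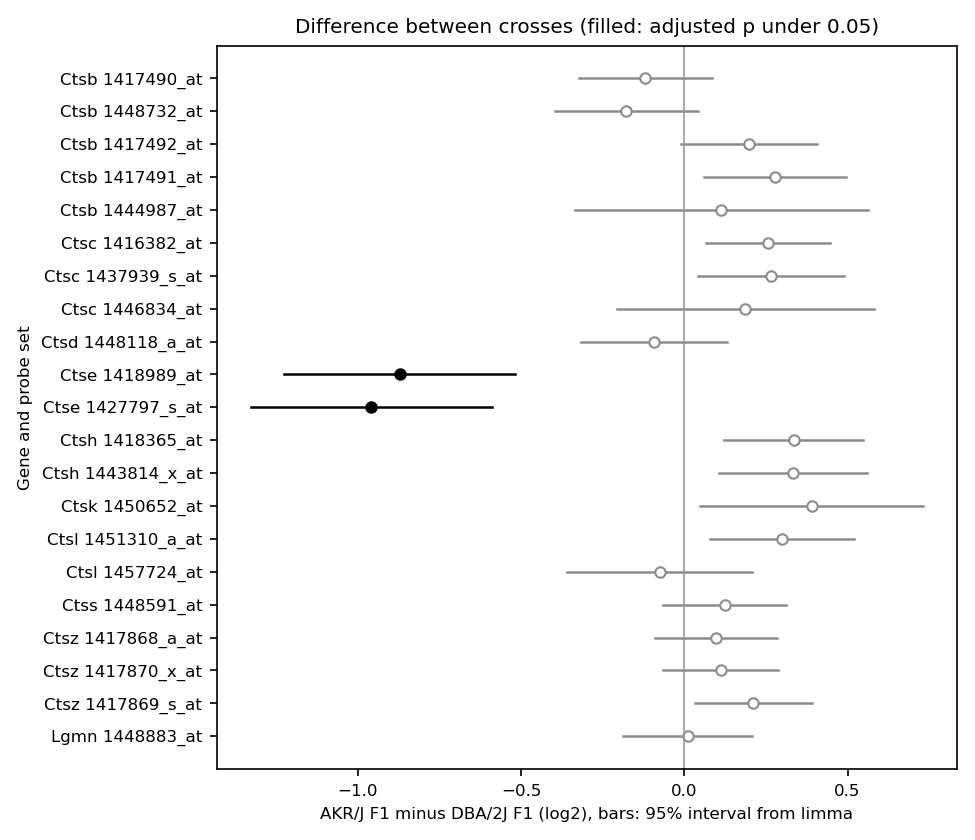
Points are the AKR/J F1 minus DBA/2J F1 differences (log2) of the 21 member probe sets, with 95% intervals from limma; filled points had an adjusted p under 0.05. The 2 Ctse probe sets, at -0.87 and -0.96, are the filled ones.

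The arrays had medians between 5.04 and 5.10, and SDs of their values of 2.32 to 2.34 in AKR/J F1 spleens and 2.26 to 2.28 in DBA/2J F1 spleens. Markers of spleen were high in both crosses: Cd79a of B cells averaged 12.03 ± 0.05 in AKR/J F1 spleens and 11.67 ± 0.11 in DBA/2J F1 spleens, and Spic of red pulp macrophages averaged 9.74 ± 0.10 in AKR/J F1 spleens and 9.63 ± 0.13 in DBA/2J F1 spleens (SD, n = 3 each). Pancreatic acinar transcripts were near the top of the scale in every spleen except DBA/2J F1 replicate 3. Their mean over 11 measured markers was 13.82 to 13.88 in AKR/J F1 spleens, 13.25 and 13.64 in DBA/2J F1 replicates 1 and 2, and 6.13 in DBA/2J F1 replicate 3. In that list 0 of 11 markers were called in limma and 0 had an unadjusted p under 0.05. Yet at all 11 the AKR/J F1 spleens lay above all DBA/2J F1 spleens. The matching share over all genes was not computed. At Clps, the marker with the smallest p, the SD was 0.06 in AKR/J F1 spleens and 4.38 in DBA/2J F1 spleens. Of all calls, 49.4% were higher in AKR/J F1 spleens as deposited and 61.9% after each array was centred on its median. A printed p weighs the difference between the crosses against the spread within these 3 and 3 spleens. That spread is moderated by limma over all probe sets. The number of arrays limits the precision, and no counts or detection calls accompany the values.

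Ctse, the member known from red cell membranes, had values of 11.27, 11.36 and 11.11 at its brighter probe set (1418989_at) in AKR/J F1 spleens, against 11.76, 12.23 and 12.36 in DBA/2J F1 spleens. All AKR/J F1 spleens lay below all DBA/2J F1 spleens, which had the wider spread. The difference was -0.87 ± 0.15 (SE; 95% interval -1.23 to -0.52; limma adjusted p = 0.0171). At the dimmer probe set (1427797_s_at), whose suffix marks probes that can match more than 1 transcript, values were 7.68, 8.03 and 7.70 in AKR/J F1 spleens and 8.41, 8.93 and 8.93 in DBA/2J F1 spleens. Again the crosses did not overlap, with a difference of -0.96 ± 0.16 (95% interval -1.33 to -0.59; limma adjusted p = 0.0148). A probe set with no overlap in this direction was found for 18.3% of all probe sets, and for 2 of the 21 members, both of them Ctse. In absolute size the Ctse difference at the brighter probe set exceeded that of 98.2% of all probe sets.

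The Ctse call was lost in most fits at the brighter probe set that left out 1 array, while the direction held in all of them. Leaving out 1 array moved the difference at the brighter probe set between -1.05 and -0.75 and at the dimmer one between -1.13 and -0.87. At the brighter probe set the limma adjusted p was 0.0585 without AKR/J F1 replicate 1, 0.0610 without AKR/J F1 replicate 3, 0.0623 without DBA/2J F1 replicate 2 and 0.0501 without DBA/2J F1 replicate 3. At the dimmer probe set it was 0.0585 and 0.0559 with the same AKR/J F1 replicates left out, 0.0567 without DBA/2J F1 replicate 2 and 0.0497 without DBA/2J F1 replicate 3. Over all alternatives the adjusted p ran from 0.00245 to 0.0623 at the brighter and from 0.00332 to 0.0585 at the dimmer probe set. The lowest of each came from leaving out DBA/2J F1 replicate 1, the spleen of that cross with the least Ctse.

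Red cell precursor markers differed in the same direction as Ctse. All 10 measured erythroid markers fell in AKR/J F1 spleens and 0 rose, against 6.17% of genes called higher in DBA/2J F1 spleens at their brightest probe set. The list's median difference was -1.91, and 7 to 10 were called whichever array was left out. Summed on the linear scale, the markers reached 3021 to 4972 in AKR/J F1 spleens and 9870 to 16770 in DBA/2J F1 spleens, and the dimmest, Epb42, still averaged 7.42 over the 6 arrays. Rhd, a blood group protein of red cells, averaged 7.88 ± 0.39 in AKR/J F1 spleens and 10.34 ± 0.65 in DBA/2J F1 spleens (SD, n = 3 each). Fewer red cell precursors and less RNA per cell cannot be told apart in whole spleen.

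The 6 spleens stood in the same order for the brighter Ctse probe set and for the erythroid markers. Both measures kept the crosses apart, so only the order within each cross was free to differ. The marker mean was 8.34, 8.57 and 7.83 in AKR/J F1 replicates 1, 2 and 3 and 9.59, 10.32 and 10.45 in DBA/2J F1 replicates 1, 2 and 3. From lowest to highest this runs through AKR/J F1 replicates 3, 1 and 2 and then DBA/2J F1 replicates 1, 2 and 3, as does the brighter Ctse probe set. The dimmer Ctse probe set kept the crosses apart and swapped the order of AKR/J F1 replicates 1 and 3 and of DBA/2J F1 replicates 2 and 3, which were 0.02 apart or less. The Ctse differences were -0.87 and -0.96, and the erythroid median was -1.91. The part of erythroid cells in the Ctse difference was not tested.

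**Figure D3:**
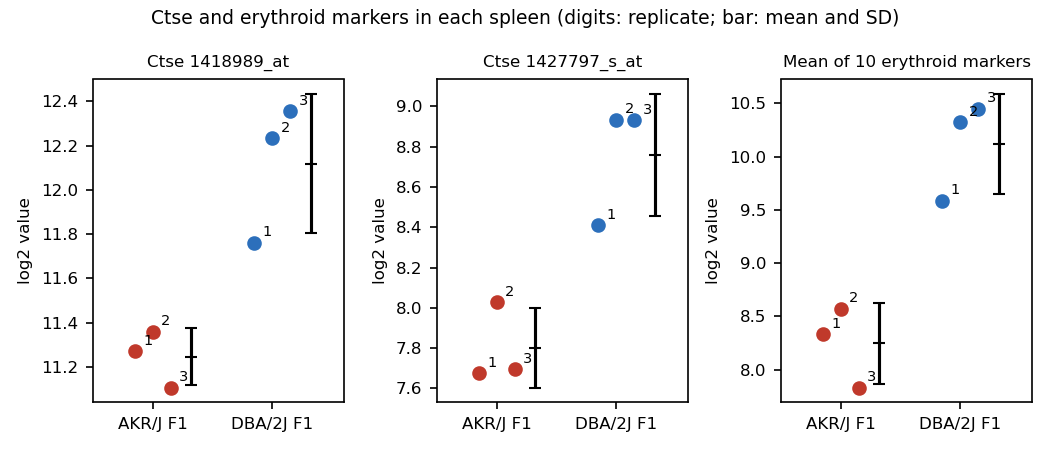
The panels show log2 values of both Ctse probe sets and the mean log2 value of 10 erythroid markers in each spleen, with the replicate number beside each point and the mean and SD (n = 3) of each cross as a bar. In all panels the AKR/J F1 spleens lie below the DBA/2J F1 spleens, and replicate 1 is the lowest DBA/2J F1 spleen.

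Among 158 listed genes that are not members, those nearest to each Ctse probe set were sought by the root mean square distance between values centred on each gene's own mean over the 6 arrays. For the brighter probe set they were Ctsf, which encodes a further papain-like cathepsin (distance 0.28, its own difference -0.44), and the macrophage scavenger receptor gene Cd163 (distance 0.31, difference -0.38, limma adjusted p = 0.201). For the dimmer probe set they were the transferrin receptor gene Tfrc (distance 0.30, difference -1.46) and the erythroid transcription factor gene Gata1 (distance 0.31, difference -1.50). The values were not scaled, so each distance also depends on how large a gene's own difference is. These distances describe 6 arrays and carry no test.

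Cathepsin D, the general aspartic protease of lysosomes and the closest relative of cathepsin E among the members, did not pass. Ctsd stood at 10.65, 10.69 and 10.78 in AKR/J F1 spleens and at 10.67, 10.77 and 10.97 in DBA/2J F1 spleens. The crosses overlapped, with a difference of -0.09 ± 0.10 and a 95% interval of -0.32 to 0.13 (limma adjusted p = 0.549). The interval does not reach the Ctse difference of -0.87, although no test was made between the 2 genes.

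Ctsh, an aminopeptidase among the cysteine cathepsins, came nearest to the threshold in the other direction. Its brighter probe set (1418365_at) had values of 10.65, 10.66 and 10.75 in AKR/J F1 spleens and 10.49, 10.23 and 10.33 in DBA/2J F1 spleens. All AKR/J F1 spleens lay above all DBA/2J F1 spleens, by 0.34 ± 0.09 on average (95% interval 0.12 to 0.55; limma adjusted p = 0.0548). The second probe set (1443814_x_at), whose suffix marks probes shared with other sequences, had 9.98, 9.92 and 10.05 in AKR/J F1 spleens and 9.82, 9.52 and 9.62 in DBA/2J F1 spleens. Its difference of 0.33 ± 0.10 was nearly the same (limma adjusted p = 0.0651), and again there was no overlap. With 1 probe set per gene and adjustment over genes, Ctsh had an adjusted p of 0.0404 and passed. In that fit 2 of 10 members passed, Ctsh and Ctse, against 17.2% of all genes. Over its alternatives the adjusted p of the brighter Ctsh probe set ran from 0.0292 to 0.151.

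Ctsl and Ctsc lay similarly. Ctsl, an endopeptidase that cuts the invariant chain in thymic epithelium, had 10.06, 10.07 and 10.10 in AKR/J F1 spleens and 9.94, 9.62 and 9.76 in DBA/2J F1 spleens (1451310_a_at). The AKR/J F1 spleens were close together (SD 0.02) and all above the others, with a difference of 0.30 ± 0.10 that did not pass (limma adjusted p = 0.0803). The other Ctsl probe set, 1457724_at, stood near the bottom of the scale at 2.79 ± 0.22 in AKR/J F1 spleens and 2.87 ± 0.13 in DBA/2J F1 spleens (SD, n = 3 each), so that little can be read from it.

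Ctsc encodes dipeptidyl peptidase I, which activates granzymes and the serine proteases of neutrophils. At its bright probe set (1416382_at) it had 11.14, 11.09 and 11.15 in AKR/J F1 spleens and 10.94, 10.76 and 10.90 in DBA/2J F1 spleens. There was no overlap, and the difference was 0.26 ± 0.08 (limma adjusted p = 0.0809). The dimmer 1437939_s_at differed by 0.27 ± 0.10 and 1446834_at by 0.19 ± 0.17, and at the last of these the crosses overlapped. Of 7 measured proteases that cathepsin C matures (granzymes, Elane, Prtn3 and Ctsg), 0 were called in limma and 0 had an unadjusted p under 0.05, with 3 positive and 4 negative differences. The smallest p was that of Gzmk, a granzyme gene, with a difference of 0.42 ± 0.20 (limma adjusted p = 0.203).

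Ctsk, the collagen-degrading cathepsin of osteoclasts, gave a signal not far above the array medians. It had 5.53, 5.69 and 5.66 in AKR/J F1 spleens and 5.39, 4.87 and 5.44 in DBA/2J F1 spleens. The groups did not overlap, but DBA/2J F1 replicate 2 stood well below its other replicates, and the difference of 0.39 ± 0.15 did not pass (limma adjusted p = 0.122). Without that replicate the difference was 0.21. Ctsk and Ctss are neighbours in the RefSeq annotation (GRCm38.p6), with 0 protein-coding genes between them.

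Ctss, the cathepsin that trims the invariant chain in B cells and dendritic cells, had 12.81, 12.68 and 12.73 in AKR/J F1 spleens and 12.68, 12.53 and 12.63 in DBA/2J F1 spleens. The crosses overlapped by less than 0.01, and the difference was 0.12 ± 0.08 (95% interval -0.07 to 0.31; limma adjusted p = 0.339). Of 5 measured genes of class II peptide loading 0 were called in limma and 1 had an unadjusted p under 0.05, the class II chaperone chain gene H2-DMb2 (-0.27 ± 0.10, limma adjusted p = 0.0996). The invariant chain gene Cd74 itself averaged 13.48 ± 0.02 in AKR/J F1 spleens and 13.52 ± 0.10 in DBA/2J F1 spleens (SD, n = 3 each).

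Ctsz encodes cathepsin X, a carboxypeptidase. Its brightest probe set (1417868_a_at) had 11.91, 11.96 and 11.96 in AKR/J F1 spleens and 11.86, 11.75 and 11.93 in DBA/2J F1 spleens. These overlapped, and the difference was 0.10 ± 0.08. The other Ctsz probe sets differed by 0.11 ± 0.08 (1417870_x_at) and 0.21 ± 0.08 (1417869_s_at) with no overlap, and none of the 3 passed (limma adjusted p = 0.113 for the last).

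Lgmn, which activates and cleaves several of the cysteine cathepsins, was the member with the smallest difference. It had 9.79, 9.71 and 9.76 in AKR/J F1 spleens and 9.77, 9.62 and 9.83 in DBA/2J F1 spleens. The difference was 0.01 ± 0.09, with a 95% interval of -0.19 to 0.21 (limma adjusted p = 0.947). A difference as large as that of Ctse lies outside this interval, while one of 0.10, as at the brightest Ctsz probe set, lies within it.

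Ctsb, a cysteine protease with both endopeptidase and exopeptidase activity, had 5 probe sets, and they did not point one way. The brightest (1417490_at) had 12.51, 12.60 and 12.67 in AKR/J F1 spleens and 12.70, 12.62 and 12.82 in DBA/2J F1 spleens, with overlap and a difference of -0.12 ± 0.09. The next (1448732_at) differed by -0.18 ± 0.10. The following pair had positive differences with no overlap between the crosses: 1417492_at had 9.17, 9.25 and 9.42 in AKR/J F1 spleens and 9.08, 9.03 and 9.13 in DBA/2J F1 spleens (0.20 ± 0.09), and 1417491_at differed by 0.28 ± 0.10. The fifth, 1444987_at, varied most between AKR/J F1 spleens (5.63 ± 0.43, against 5.52 ± 0.15 in DBA/2J F1 spleens; SD, n = 3 each). No Ctsb probe set passed, with limma adjusted p values from 0.0940 to 0.725.

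Without overlap in the direction of AKR/J F1 spleens were 10 of the 21 member probe sets, against 17.7% of all probe sets. They belonged to Ctsb (2), Ctsc (2), Ctsh (2), Ctsk (1), Ctsl (1) and Ctsz (2). Since probe sets of 1 gene are not independent of each other, they are not 10 separate observations. At the brightest probe set of each gene the number was 4 of 10 (Ctsc, Ctsh, Ctsk and Ctsl). The matching share over all genes was not computed, and the 17.7% over all probe sets is not a like background for it.

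**Figure D4:**
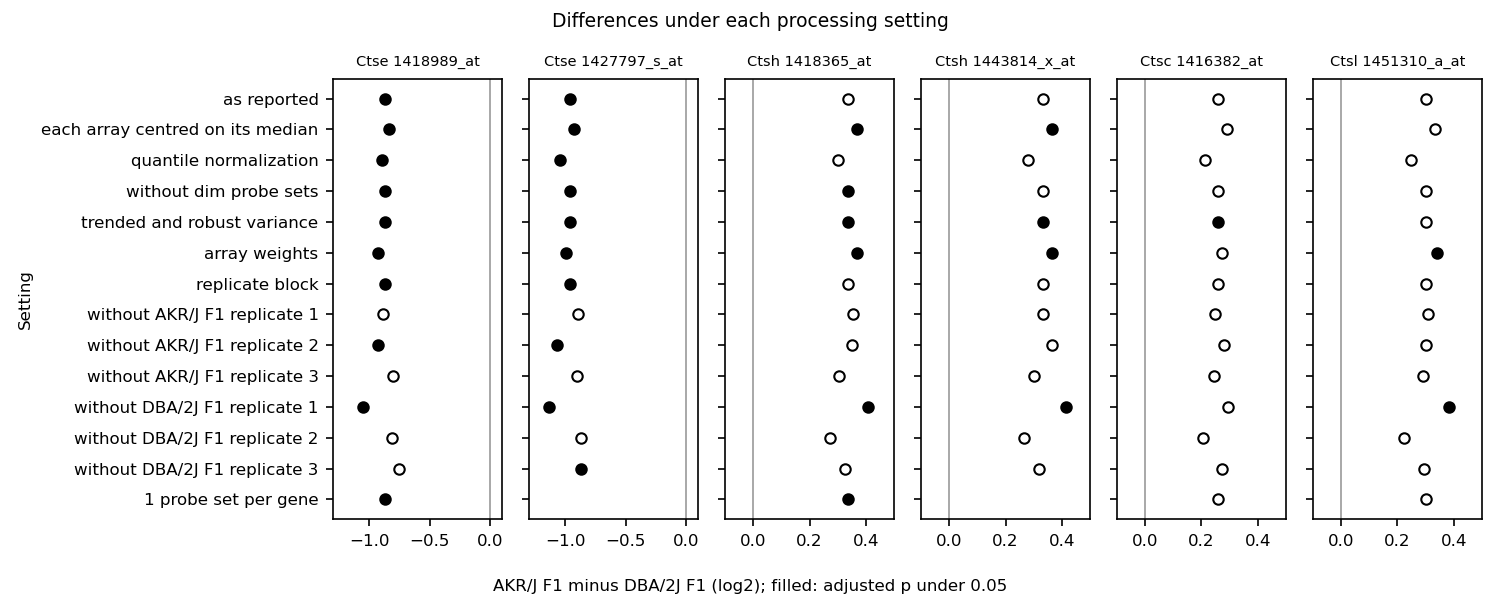
For the 2 probe sets each of Ctse and Ctsh and the brightest of Ctsc and Ctsl, each point is the AKR/J F1 minus DBA/2J F1 difference (log2) under 1 processing setting, filled where the adjusted p was under 0.05. No difference crosses 0, the Ctse points are open in 4 and 3 of the 6 fits that leave out 1 array, and the Ctsh points are filled in some settings and open as reported.

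Other genes of the lysosome were set beside the members, 1 probe set per gene. The background for these counts is 6.29% of genes called higher in AKR/J F1 spleens and 6.17% called higher in DBA/2J F1 spleens. Of 17 measured genes of lysosomal hydrolases or their activators, outside the cathepsins, 3 rose in AKR/J F1 spleens and 0 fell. The median difference was 0.17. They were the alpha-mannosidase gene Man2b1 (0.41 ± 0.09, limma adjusted p = 0.0283), Naglu, an enzyme of heparan sulfate breakdown (0.31 ± 0.08, limma adjusted p = 0.0440), and the sialidase gene Neu1 (0.32 ± 0.08, limma adjusted p = 0.0440). The count was 1 without DBA/2J F1 replicate 1 and 0 without any other single array.

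New cathepsins are sent to lysosomes by a mannose 6-phosphate tag. Over 9 genes that make or read this tag or otherwise sort lysosomal proteins, the median difference was 0.19. Of these, 2 rose in AKR/J F1 spleens and 0 fell. Both encode the enzyme that makes the tag: Gnptab (0.42 ± 0.08, limma adjusted p = 0.0225) and Gnptg (0.33 ± 0.09, limma adjusted p = 0.0460). The count was 0 without any 1 of the AKR/J F1 replicates or without DBA/2J F1 replicate 2, 2 without DBA/2J F1 replicate 1 and 1 without DBA/2J F1 replicate 3.

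A list of 10 genes covered lysosomal membrane proteins and regulators, with a soluble lysosomal protein among them. Of these, 0 were called in limma and 4 had an unadjusted p under 0.05, although all 10 differences were positive (median 0.14). The smallest p belonged to the transcription factor gene Mitf (0.36 ± 0.10, limma adjusted p = 0.0539). Tfeb, the main transcription factor of lysosomal genes, averaged 8.23 ± 0.11 in AKR/J F1 spleens and 8.20 ± 0.11 in DBA/2J F1 spleens (SD, n = 3 each). Of 8 measured inhibitors of cathepsins 0 were called in limma and 3 had an unadjusted p under 0.05. The cytosolic inhibitor gene Cstb had the smallest p (0.25 ± 0.08, limma adjusted p = 0.0726), and Cst3, the secreted inhibitor cystatin C, differed by -0.10 ± 0.08. Of 3 endosomal Toll-like receptor genes, whose products are cut by cathepsins, 0 were called in limma and 1 had an unadjusted p under 0.05 (Tlr3, 0.35 ± 0.12, limma adjusted p = 0.0919).

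Of 13 cathepsins outside the members, 1 rose and 2 fell in AKR/J F1 spleens. Most of the 13 stood near the bottom of the scale, with means of 3.12 or less in both crosses. Ctsw, the cathepsin of cytotoxic lymphocytes, had 8.58, 8.37 and 8.39 in AKR/J F1 spleens and 8.01, 8.12 and 7.76 in DBA/2J F1 spleens (0.48 ± 0.11, limma adjusted p = 0.0362). Ctsf had 6.44, 6.39 and 6.46 in AKR/J F1 spleens and 6.80, 6.86 and 6.95 in DBA/2J F1 spleens (-0.44 ± 0.08, limma adjusted p = 0.0187). Ctsq, a placental cathepsin of rodents, was near the bottom of the scale (2.75 ± 0.09 in AKR/J F1 spleens and 3.12 ± 0.10 in DBA/2J F1 spleens; SD, n = 3 each). Of these, 1 in each direction was called without DBA/2J F1 replicate 1 and 0 without any other single array.

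Macrophages, dendritic cells and B cells are known for their cysteine cathepsins, and some of their markers rose in AKR/J F1 spleens. Of 19 red pulp macrophage and monocyte markers 0 were called in limma and 4 had an unadjusted p under 0.05, with a median of 0.02. Their summed linear level was 31858 to 34314 in AKR/J F1 spleens and 29834 to 34269 in DBA/2J F1 spleens. The background for this and the following marker lists is 6.29% of genes called higher in AKR/J F1 spleens at their brightest probe set. Of 5 marginal zone macrophage markers 3 rose in AKR/J F1 spleens, namely Cd5l (0.71), the scavenger receptor gene Marco (0.66) and Timd4 (0.73). Cd209b (0.35) and Siglec1 (-0.14) were not called, and at Siglec1 all DBA/2J F1 spleens lay above all AKR/J F1 spleens. The summed level of the 5 was 3660 to 3980 in AKR/J F1 spleens and 2398 to 2611 in DBA/2J F1 spleens. Of 9 dendritic cell markers 3 rose, with a summed level of 2020 to 2321 in AKR/J F1 spleens and 1636 to 1991 in DBA/2J F1 spleens. Of 9 B cell markers 2 rose, with 21035 to 22749 in AKR/J F1 spleens and 16481 to 20162 in DBA/2J F1 spleens. With 1 array left out, 3 or 4 marginal zone markers were called. The dendritic cell count was 3 without DBA/2J F1 replicate 1, 2 without AKR/J F1 replicate 2 and 1 without each of the others, and the B cell count was 6 without DBA/2J F1 replicate 1 and 0 without each of the others. The dimmest marker of each list was Itgam (5.40), Siglec1 (5.38), Xcr1 (5.03) and Pax5 (6.87), each as its mean over the 6 arrays. Their part in the cathepsin values was not tested.

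Beside Ctsk, the markers of stroma and bone-resorbing cells included 2 of 10 that rose in AKR/J F1 spleens, the matrix proteoglycan genes Lum (1.13 ± 0.13, limma adjusted p = 0.00405) and Dcn (0.62 ± 0.14, limma adjusted p = 0.0309). The summed level of all 10 was 3344 to 3671 in AKR/J F1 spleens and 2544 to 3109 in DBA/2J F1 spleens. The dimmest was Oscar, a receptor of osteoclasts, at 3.84. No gene of bone-resorbing cells in the list was called. Dcstamp differed by -0.39, Oscar by -0.15, Ocstamp by 0.08 and Mmp9 by 0.34. At Dcstamp all DBA/2J F1 spleens lay above all AKR/J F1 spleens. The count of called markers was 6 without DBA/2J F1 replicate 1 and 1 without any other single array. Their part in the Ctsk values was not tested. Of 9 neutrophil markers 0 were called in limma and 0 had an unadjusted p under 0.05, although all 9 differences were negative (median -0.24). Their summed levels were 4147 to 5792 in AKR/J F1 spleens and 3318 to 10396 in DBA/2J F1 spleens. All 8 measured T cell markers rose in AKR/J F1 spleens (8 without DBA/2J F1 replicate 1, 6 without DBA/2J F1 replicate 2 and 5 without any other single array). Among them Cd8a, a coreceptor chain of cytotoxic T cells, differed by 0.59, and the coreceptor gene Cd4 by 0.37. Ctsw differed by 0.48, and the part of T cells in that difference was not tested.

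**Figure D5:**
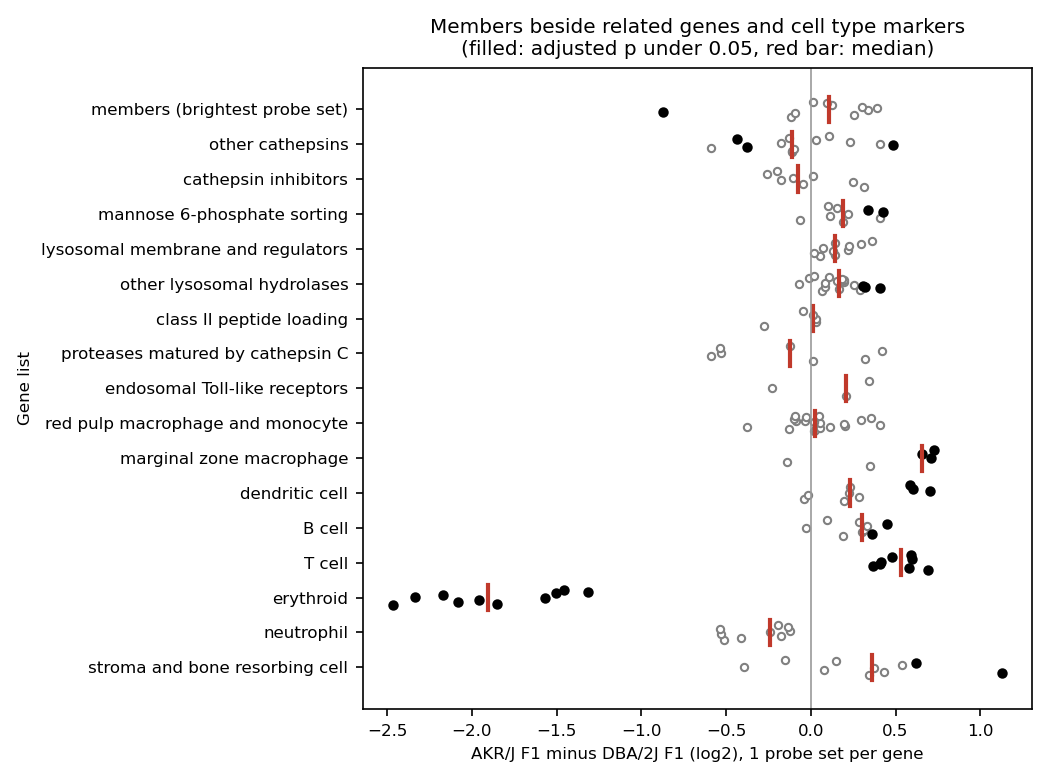
Each point is a gene at its brightest probe set, placed by its AKR/J F1 minus DBA/2J F1 difference (log2) and filled where the adjusted p was under 0.05; red bars are list medians, and the pancreatic acinar list, whose DBA/2J F1 replicate 3 stood apart, is not drawn. Ctse is the filled point of the members and lies toward the erythroid markers (median -1.91), while the lists of hydrolases, sorting genes and membrane proteins lie mostly to the right of 0.

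A sequence feature that some members share is shown here because it is the letters by which TFEB and its relatives recognise many lysosomal promoters. The core of that element is CACGTG, which reads the same on both strands. RefSeq promoters (GRCm38.p6) were matched by symbol for 7 of the 10 members, and Ctsb, Ctse and Ctsh had no entry. In the 250 bases before the start, the core was found in 3 of the 7 genes (3 of their 8 windows), against 6.02% of all 32851 such windows. The matches are printed here with their flanks, 5′ to 3′ on the strand of the gene (minus for all), with the core in capitals.
Ctsd, chr7:142388055-142388077: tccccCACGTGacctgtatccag
Ctsd, chr7:142387908-142387937: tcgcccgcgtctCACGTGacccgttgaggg
Ctsl, chr13:64370739-64370768: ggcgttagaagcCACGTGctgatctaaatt
Lgmn, chr12:102439124-102439153: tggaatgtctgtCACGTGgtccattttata
The core began 245 and 98 bases before the start of Ctsd, 236 before that of Ctsl and 49 before that of Lgmn. Ctsd and Lgmn, which hold it, had differences of -0.09 and 0.01, and Ctsl had 0.30. The match describes the letters in these windows, and its relation to expression was not tested.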

How the data were processed

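Spleen RNA of 6 adult F1 females, extracted with Trizol and labelled with biotin per the labels' protocols, was measured on Affymetrix arrays. The deposited probe set values were taken as log2 from their range. Array medians were close (5.04 to 5.10), while the SDs of the values differed by cross as given above. The submitters' processing notes list MAS5 and RMA, with neither role nor version stated. Groups and replicate numbers came from the sample titles.

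Of 45101 probe sets, 64 Affymetrix controls were left out. Platform annotation gave 1 symbol to 34945 of the rest, several to 932 and none listed here to 9160. All 45037 were fitted with limma 3.58.1 (lmFit, eBayes) in R 4.3.3 on the 6 arrays with no covariate, with Benjamini-Hochberg adjustment and a threshold of 0.05. This leaves 4 residual degrees of freedom. Permuting 3 against 3 spleens exactly can give no p under 0.1. The fit was tested on simulated data. Ctsg, Elane, Prtn3 and Cd68 each stand in more than 1 list. In gene lists each gene was represented by the probe set with the highest mean.

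The members, lists and tests were chosen with earlier results of these data known. All member probe sets are named. From each list up to 4 called genes, those of smallest adjusted p, could be named, or 1 gene of smallest p in a list without calls, and for called member probe sets differing by at least 0.5 the 2 nearest list genes. Spic, Cst3, Tfeb, Cd74, Cd4, Cd209b, Dcstamp, Ocstamp, Mmp9 and the dimmest marker of each list were added after their values were seen. Alternatives were median centring, quantile normalization, array weights, a robust variance with trend, dropping the dimmest 40% of probe sets by mean, a block for replicate number, each array left out in turn, and 1 probe set per gene. The pseudocount planned for linear values was not needed.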

Additional observations from a re-analysis of the deposited data

How the results depend on the processing

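Both Ctse probe sets kept their direction under every alternative run on them, and their calls under those that kept all 6 arrays. The fit with 1 probe set per gene holds the brighter one alone. When 1 array was left out, the number of member probe sets called higher in DBA/2J F1 spleens ranged from 0 (AKR/J F1 replicate 1 or 3 or DBA/2J F1 replicate 2 left out) to 2. Higher in AKR/J F1 spleens it ranged from 0 to 3, the 3 being both Ctsh probe sets and 1 of Ctsl without DBA/2J F1 replicate 1. The count over all probe sets was 4688 as reported, 4793 without DBA/2J F1 replicate 1 and 1001 to 1513 without any other array. The cause of these shifts was not tested. Higher in AKR/J F1 spleens, where 0 member probe sets passed as reported, were 2 after median centring, 1 without dim probe sets, 3 with a trended and robust variance and 3 with array weights, all from Ctsh, Ctsc and Ctsl. With 1 probe set per gene, 1 gene passed in each direction (Ctsh and Ctse). Quantile normalization left 1436 probe sets called higher in AKR/J F1 spleens over the whole array, against 2317. Differences that changed sign were uncalled in every fit: Lgmn was -0.047 after quantile normalization and ran from -0.051 to 0.056 with 1 array left out, the dim Ctsl probe set 1457724_at was 0.0018 after quantile normalization and ran from -0.20 to 0.00054, and the dim Ctsb probe set 1444987_at ran from -0.10 to 0.33. Of the other 255 comparisons of a member probe set with an alternative, 235 kept direction and side of the threshold, 13 gained a call and 7 lost one. Same-numbered arrays deviated from their cross means with correlations of 0.20, 0.11 and 0.05 over probe sets, so the numbers were not taken as pairing the spleens. With the replicate number as a block 2 member probe sets were called, both of Ctse, and 4658 over the array, and no member call changed. The Ctsl probe set 1457724_at has no value without dim probe sets.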

Other observations

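The gap between Ctsb probe sets within a spleen was smaller in AKR/J F1 spleens. The mean of the 2 brightest Ctsb probe sets minus the mean of the next 2 was 3.96, 3.89 and 3.87 in AKR/J F1 spleens, against 4.31, 4.23 and 4.33 in DBA/2J F1 spleens. By cross this gap was 3.90 ± 0.05 in AKR/J F1 spleens and 4.29 ± 0.05 in DBA/2J F1 spleens (SD, n = 3 each), so that the distance between the crosses was several times the spread within them. The probe sets were paired this way after their values were seen, so no test is given.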
